A study of Mus musculus with 8 samples.

Results

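The nuclear genes for subunits of respiratory complexes II to V were examined by RNA sequencing in mouse soleus, a hindlimb muscle rich in slow, mitochondria-dense fibres. The genes were taken by name from the deposited table: Cyc1, Sdhb, Sdhc, Sdhd and every symbol that begins with Uqcr, Atp5 or Cox4 to Cox8, provided that its 8 libraries averaged 1 FPKM or more. FPKM counts fragments relative to transcript length and library size, so levels can be set side by side between genes. Of the 24033 genes in the table, 51 carried such a name and 45 of these reached the minimum. The 45 comprise 3 genes of complex II, 9 of complex III, 14 of complex IV, 14 of complex V and 5 that code for no subunit. Those 5 include Cox7a2l, a factor that joins complexes into supercomplexes, and Atp5s, which codes for a factor B-like protein. The others are Atp5sl, which codes for a complex I assembly protein, and the pseudogenes Atp5k-ps2 and Uqcrh-ps1. Values in both genotypes were present for 44 of the 45. The exception is Cox4i1, which is listed at 0 in every MyoCre library. Just inside the minimum lay Atp5l at 1.77 FPKM and Cox4i2 at 2.40 FPKM, and just outside it Cox6b2 at 0.544, Atp5l2-ps at 0.505 and Atp5g2 at 0.433 FPKM. The other genes below it were Uqcrh-ps2, Atp5l-ps1 and Cox7b2.

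The respiratory complexes sit in the inner mitochondrial membrane. Complex II, succinate dehydrogenase, also a step of the citric acid cycle, passes electrons to ubiquinone, complex III passes them on to cytochrome c, and complex IV, cytochrome c oxidase, hands them to oxygen. Complex V, the ATP synthase, makes ATP from the proton gradient that complexes III and IV help to build. Several complex IV subunits come in paired isoforms: Cox6a2, Cox7a1 and Cox8b are the forms of heart and skeletal muscle, and Cox6a1, Cox7a2 and Cox8a the forms found more widely. The soleus depends on this machinery for sustained work.

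The 4 K15-SKO samples had the genotype Myogenin-Cre/+;K15F/F, read here as floxed alleles of Klf15, and the 4 MyoCre samples had Myogenin-Cre/+ alone. Both genotypes thus carried the Cre, which is driven from myogenin, a gene of differentiating skeletal muscle, so cells of the muscle that are not of this lineage are not expected to have lost Klf15. All mice were 2 months old, and each library is a whole soleus sample. KLF15 is a transcription factor known for its part in amino acid and lipid metabolism, and the comparison addresses how its deletion changes the transcriptome of this muscle. The labels number the samples within a genotype without saying more of their origin, so the p-values measure the spread between these samples.

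Klf15 itself measured 15.7, 19.3, 16.7 and 13.1 FPKM in the K15-SKO libraries, against 44.5, 49.8, 49.1 and 22.8 FPKM in the MyoCre libraries. The genotypes did not overlap, and MyoCre replicate 4 lay nearest to the K15-SKO range. In limma, Klf15 had a log2 fold change of -1.28 (SE 0.24) and an adjusted p of 0.0943. This missed the threshold of 0.05 in the fit used here, which leaves out genes listed at 0 in a whole genotype. It was 0.0315 when those genes were kept, and it passed in 4 of 21 alternative fits. The sources used here do not say which part of the gene was floxed.

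The libraries differed in ways that bear on the values. FPKM sums ran from 519884 to 652275 and estimated depth from 7860000 to 22200000 fragments, with MyoCre replicate 2 the deepest. K15-SKO replicate 3 stood apart: the small nuclear RNA Rn7sk took 14.1% of its FPKM sum, against 8.67 to 10.5% in the other libraries, and its 5 red blood cell markers summed to 2034 FPKM, against 284 to 577 FPKM in the others. MyoCre replicate 2 was the only male, with Xist at 0.0103 FPKM and Y-linked genes at 64.8 FPKM in sum. Slow fibre markers, 10 of 10 tested, summed to 15120 to 28858 FPKM in K15-SKO and 14925 to 25953 FPKM in MyoCre libraries, and fast fibre markers to 7516 to 18788 FPKM in K15-SKO and 9032 to 20029 FPKM in MyoCre libraries. Both kinds of fibre were thus present in every sample.

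Promoter sequence was read from RefSeq's table for GRCm38.p6, which held 30 of the 45 genes. The windows, which reach from upstream of the start into the first bases of the transcript, were searched on both strands for cores of factors linked to respiratory genes. The core of NRF-1 (GCATGCGC) was in 6 of 30, or 20%, against 3.05% of the promoters of 27025 genes. The ETS core, which NRF-2 also binds (CCGGAAG), was in 12 of 30, or 40%, against 9.93%. The ERR element (TCAAGGTCA) was in 2 of 30, or 6.67%, against 0.466%, and the YY1 core (AAGATGGC) in 2 of 30, or 6.67%, against 3.19%. The GC box bound by SP and KLF proteins (CCCCGCCC) was in 3 of 30, or 10%, against 19.6%. A match describes these letters and is no evidence of binding. The 3 promoters below are shown for the complex II gene with the lowest p, Sdhb, and for a pair of isoforms at very different levels, Cox8a and Cox8b. They are written 5′ to 3′ on the gene's strand, with every match to the 5 motifs in capitals. Sdhb lies at chr4:140961021-140961320 on the plus strand, Cox8a at chr19:7217567-7217866 and Cox8b at chr7:140900397-140900696, both on the minus strand.
Sdhb promoter: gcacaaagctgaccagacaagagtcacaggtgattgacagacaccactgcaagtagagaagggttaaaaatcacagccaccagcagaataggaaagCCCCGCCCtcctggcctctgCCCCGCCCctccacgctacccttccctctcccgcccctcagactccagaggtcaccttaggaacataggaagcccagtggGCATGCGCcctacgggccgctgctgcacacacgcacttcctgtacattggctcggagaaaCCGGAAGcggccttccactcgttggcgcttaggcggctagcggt
Cox8a promoter: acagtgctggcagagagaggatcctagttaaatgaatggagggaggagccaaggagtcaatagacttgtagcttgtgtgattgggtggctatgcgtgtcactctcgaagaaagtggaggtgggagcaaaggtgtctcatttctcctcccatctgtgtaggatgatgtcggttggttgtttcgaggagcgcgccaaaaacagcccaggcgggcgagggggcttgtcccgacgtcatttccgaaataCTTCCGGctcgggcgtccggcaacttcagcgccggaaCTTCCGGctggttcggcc
Cox8b promoter: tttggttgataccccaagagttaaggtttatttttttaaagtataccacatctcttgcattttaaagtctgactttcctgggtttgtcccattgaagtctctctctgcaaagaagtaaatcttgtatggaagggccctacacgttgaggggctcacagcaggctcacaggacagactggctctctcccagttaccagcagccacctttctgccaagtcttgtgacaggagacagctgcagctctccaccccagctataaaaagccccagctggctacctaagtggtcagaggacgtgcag
The Sdhb window held 1 NRF-1 core, 1 ETS core and 2 GC boxes. Cox8a held 2 ETS cores. Cox8b held 0 matches to any of the 5, as did Cox7a1, the muscle isoform of subunit 7a, and Cox7a2, its wider form. At least 1 match was found for 16 of the 30 genes, so a window without any was common. Sdhc, Cyc1, Uqcrc2, Uqcrb, Uqcrq, Cox4i1, Cox4i2, Cox6a2, Cox6c, Atp5a1, Atp5f1, Atp5s, Atp5sl, Atp5k-ps2 and Uqcrh-ps1 were not in the table.

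Subunit mRNAs were abundant in both genotypes. Together the subunit genes made up 3.41 to 4.08% of the FPKM sum of a library, leaving out Cox4i1. The highest level was that of Atp5b, the catalytic beta subunit of the ATP synthase, at 1660 ± 197 FPKM in K15-SKO and 1750 ± 215 FPKM in MyoCre muscle (SD, n = 4 each, as for all means below). Next by mean over the 8 libraries came Cox8b at 1461, Cox6c at 1291, Atp5a1 at 1266, Cox6a2 at 1171, Cox7a1 at 1161 and Atp5k at 1082 FPKM. The muscle isoforms of complex IV exceeded the wider forms in every library. Cox6a2 was 13.04 to 24.04 times Cox6a1 in K15-SKO and 23.1 to 34.9 times in MyoCre libraries, and Cox8b was 11.5 to 17.3 times Cox8a in K15-SKO and 11.7 to 12.97 times in MyoCre libraries. Cox7a1 was 2.89 to 4.59 times Cox7a2 in K15-SKO and 2.48 to 4.67 times in MyoCre libraries. The order of the 44 genes by level was nearly the same in both genotypes, with Spearman's rho of 0.992 across genes, which are not independent replicates and share the libraries.

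**Figure D1:**
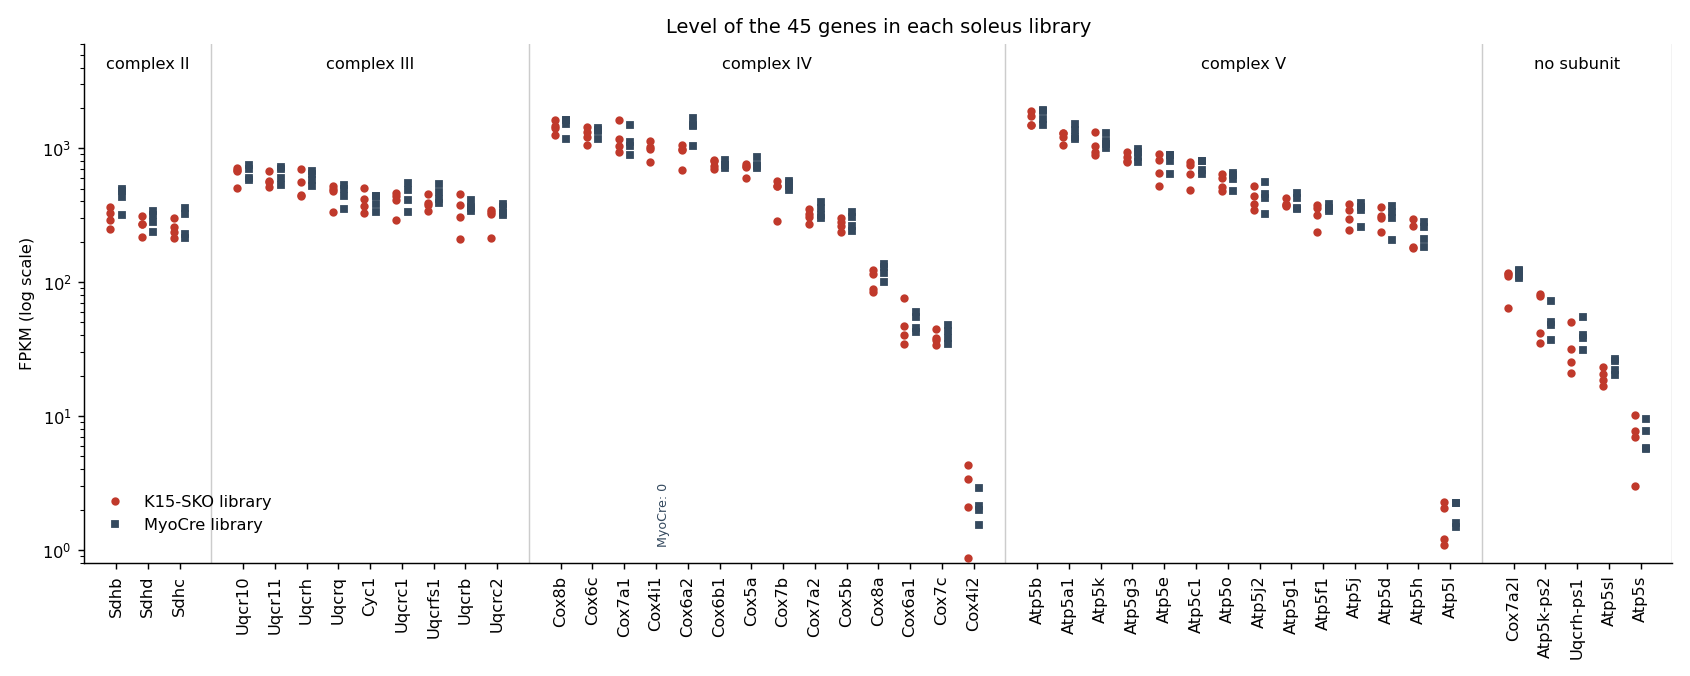
FPKM on a log axis of the 45 genes in each library (circles, 4 K15-SKO; squares, 4 MyoCre), grouped by complex and ordered by mean. Atp5b is the highest, Cox4i2 and Atp5l lie near the minimum of 1 FPKM, and Cox4i1 has values in the K15-SKO libraries alone.

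Some subunits, at low and at high levels, had sequence shared with other genes. Of the 50-base windows of the Atp5l transcript, which codes for subunit g of the ATP synthase, 84.8% also occurred in transcripts of 14 other genes. Its level was 1.66 ± 0.60 FPKM in K15-SKO and 1.89 ± 0.42 FPKM in MyoCre muscle. Cox7c, a small complex IV subunit with 27.9% of its windows shared with 3 other genes, had 38.4 ± 4.43 FPKM in K15-SKO and 41.0 ± 5.54 FPKM in MyoCre muscle. Sharing alone did not order the levels. Atp5o, subunit OSCP, had 50.3% of its windows shared and 559 ± 77.3 FPKM in K15-SKO and 584 ± 76.9 FPKM in MyoCre muscle. Its 3 partners include a second entry under the symbol Atp5o. By mean over the 8 libraries, Atp5h had 232 FPKM with 47.9% shared, and Cox4i2 had 2.40 FPKM with 0% shared. The count did not separate overlapping neighbours from copies elsewhere in the genome. Over 39 subunits, the share of such windows and the mean level had a Spearman rho of -0.24. The sources used here do not say how reads matching several genes were counted, so the values of genes with shared windows are uncertain.

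None of the 44 genes differed between the genotypes past the threshold. The fit was limma on log2(FPKM + 0.5) over 12376 genes, with Benjamini-Hochberg adjustment over all of them and a threshold of 0.05. Of the 44, 0 passed in either direction, against 0.0970% of all genes tested, or 12, each of them lower in K15-SKO muscle. At an unadjusted p under 0.05 there were 2 of the 44, Cox6a2 and Sdhb, both lower in K15-SKO muscle. That is 4.55% of the genes, beside 4.05% of all genes tested, or 501, in either direction and 3.50% in the lower direction alone. Centred on the members' median, the share of all genes at an unadjusted p under 0.05 was 3.43%. The libraries of the genotypes overlapped for 44 of 44 genes, while 3.02% of all genes, or 374, did not overlap.

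The typical subunit stayed with the bulk of the transcriptome. The median log2 fold change of the 44 genes was -0.11, beside -0.12 for all genes tested, or 0.01 relative to that median. Relative to all genes, the median was -0.01 for complex II, -0.03 for complex III, 0.04 for complex IV and 0.04 for complex V. A negative sign was found for 38 of 44 genes and for 77.5% of all genes tested. The second share leaned on 1 library: without K15-SKO replicate 3, 59.7% of all genes were negative, and 37 of the 44. Median-of-ratios scaling moved the median of all genes to 0.00, and 16 of the 44 then had a negative sign, beside 49.8% of all genes. Standard errors ran from 0.16 to 0.33 on the log2 scale with a median of 0.19. The 95% intervals of the 44 genes lay between -1.05 and 0.87. For Atp5b the interval of the log2 fold change was -0.46 to 0.31.

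**Figure D2:**
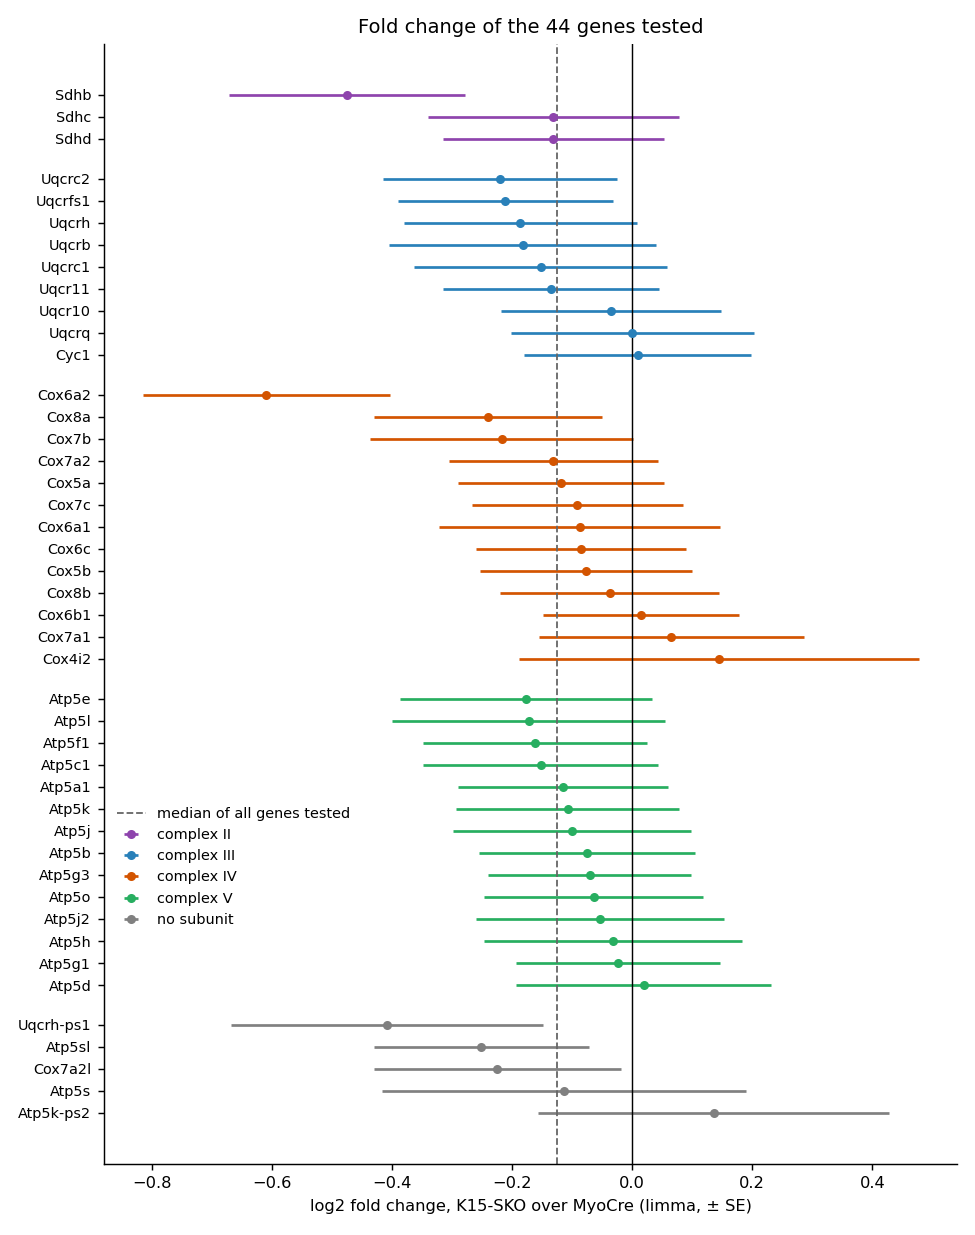
Log2 fold change, K15-SKO over MyoCre, with its moderated SE for the 44 genes tested, coloured by complex and ordered within it. Most points lie near the dashed median of all genes at -0.12, and Cox6a2 at -0.61 and Sdhb at -0.48 lie farthest to the left.

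In complex II, Sdhb, the iron-sulfur subunit, had the largest difference of the 3. It measured 330 FPKM in K15-SKO replicate 1, 362 in replicate 2, 290.2 in replicate 3 and 249 in replicate 4. In MyoCre muscle it measured 431, 493, 478 and 318 FPKM. The genotypes overlapped through MyoCre replicate 4, whose 318 FPKM lay below K15-SKO replicates 1 and 2. The K15-SKO mean was 71.6% of the MyoCre mean. The log2 fold change was -0.48 (SE 0.20, 95% interval -0.90 to -0.05) and the limma adjusted p 0.963, so it did not pass.

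The membrane anchors of complex II showed smaller differences. Sdhc had 252 ± 38.1 FPKM in K15-SKO and 280 ± 71.8 FPKM in MyoCre muscle, a log2 fold change of -0.13 (SE 0.21). Sdhd had 268 ± 38.2 FPKM in K15-SKO and 294 ± 44.96 FPKM in MyoCre muscle, also -0.13 (SE 0.18). The 3 genes together summed to 767 to 862 FPKM in K15-SKO and 894 to 1176 FPKM in MyoCre libraries, without overlap. These sums include Sdhb, with its low K15-SKO values, and leave out Sdha, which the name rule does not take. Of all single genes tested, 3.02% did not overlap, and the share for sums of 3 genes was not computed. With median-of-ratios scaling the same sums ran from 794 to 964 in K15-SKO and from 875 to 1019 in MyoCre libraries, and overlapped. The sums of complexes III, IV (without Cox4i1) and V overlapped under both scalings.

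Complex III genes lay close together. Uqcrfs1, the Rieske iron-sulfur protein, had 391 ± 47.4 FPKM in K15-SKO and 454 ± 66.6 FPKM in MyoCre muscle (log2 fold change -0.21, SE 0.18). The core protein Uqcrc2 had 304 ± 62.4 FPKM in K15-SKO and 349 ± 32.0 FPKM in MyoCre muscle (-0.22, SE 0.19). These had the smallest unadjusted p of the complex, and a limma adjusted p of 0.963 each. Cyc1, cytochrome c1, which carries the electrons to cytochrome c, differed little, with 404 ± 78.5 FPKM in K15-SKO and 399 ± 50.2 FPKM in MyoCre muscle. Uqcr10, a small subunit and the most abundant of the complex, had 645 ± 94.0 FPKM in K15-SKO and 659 ± 80.1 FPKM in MyoCre muscle. The second core protein, Uqcrc1, had 399.6 ± 76.8 FPKM in K15-SKO and 445 ± 91.1 FPKM in MyoCre muscle. Among the small subunits, the hinge protein Uqcrh had 536 ± 118 FPKM in K15-SKO and 603 ± 66.8 FPKM in MyoCre muscle, and Uqcr11 580.2 ± 67.2 FPKM in K15-SKO and 639 ± 90.5 FPKM in MyoCre muscle. Uqcrb had 337 ± 103 FPKM in K15-SKO and 369 ± 29.4 FPKM in MyoCre muscle, with K15-SKO libraries from 209.9 to 453 FPKM, and 43.4% of its windows shared with 5 other genes. Uqcrq was level, with 457 ± 85.2 FPKM in K15-SKO and 455 ± 77.0 FPKM in MyoCre muscle. Of the 9 genes, 8 had a negative sign, from -0.22 to 0.01 on the log2 scale.

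In complex IV, Cox6a2 had the largest difference of the 44 genes. This is the muscle isoform of subunit 6a, a small nuclear-encoded subunit. The K15-SKO libraries measured 970.3, 1058, 985 and 692 FPKM, against 1492, 1459, 1673 and 1042 FPKM in the MyoCre libraries. The overlap came from K15-SKO replicate 2, at 1058 FPKM, and MyoCre replicate 4, at 1042 FPKM. The K15-SKO mean was 65.4% of the MyoCre mean. By mean, Cox6a2 ranked 8 of the 45 genes in K15-SKO and 3 in MyoCre muscle, a ranking that Cox4i1 enters at 7 in K15-SKO and at 45 in MyoCre muscle. The log2 fold change was -0.61 (SE 0.21, 95% interval -1.05 to -0.17), or -0.48 relative to all genes, and the limma adjusted p was 0.888. In 21 of 21 alternative fits its sign was negative and its unadjusted p under 0.05, while its limma adjusted p ran from 0.136 to 1. In a bulk sample, fewer cells of a type and less RNA per cell cannot be told apart.

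**Figure D3:**
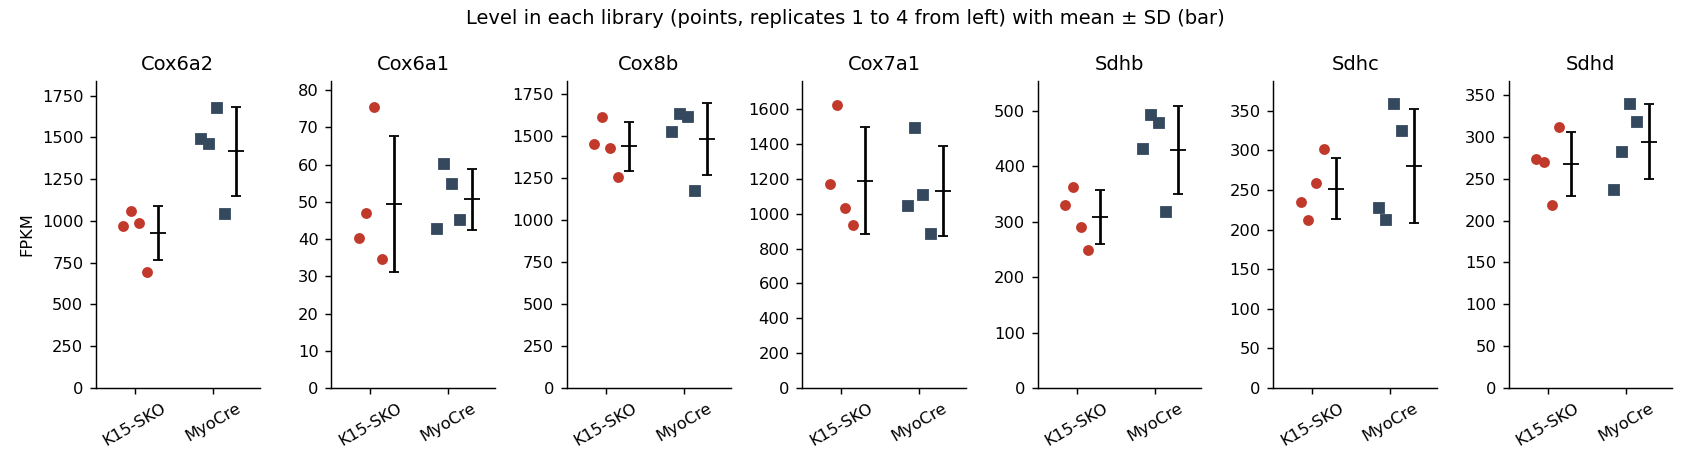
FPKM per library (circles, K15-SKO replicates 1 to 4 from the left; squares, MyoCre replicates 1 to 4) with mean ± SD, on axes that start at 0, for Cox6a2, its isoform Cox6a1, the muscle isoforms Cox8b and Cox7a1, and the complex II genes. Cox6a2 and Sdhb sit lower in K15-SKO muscle with 1 MyoCre library, replicate 4, inside the K15-SKO range; the other 5 overlap broadly.

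The other muscle isoforms had smaller differences. Cox8b measured 1455, 1616, 1426 and 1257 FPKM in K15-SKO, against 1524, 1629, 1610.1 and 1170.0 FPKM in MyoCre libraries (log2 fold change -0.04, SE 0.18). Cox7a1 measured 1167, 1624, 1033 and 934 FPKM in K15-SKO, against 1044, 1492, 1109 and 884 FPKM in MyoCre libraries (0.06, SE 0.22). The ranges lay over each other for both, and the signs of Cox8b, Cox7a1 and Cox6a1 were not the same under every scaling or with every library left out.

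Ratios within a library do not depend on how the libraries were scaled. Cox6a2 over Cox8b was 0.667, 0.655, 0.691 and 0.551 in K15-SKO libraries, against 0.979, 0.896, 1.04 and 0.891 in MyoCre libraries, without overlap. Cox6a2 over Cox7a1 was 0.831, 0.652, 0.954 and 0.741 in K15-SKO libraries, against 1.43, 0.978, 1.51 and 1.18 in MyoCre libraries, again without overlap. Sdhb over Sdhc overlapped, at 0.825 to 1.70 in K15-SKO and 0.979 to 2.32 in MyoCre libraries, as did Sdhb over Sdhd. These ratios were chosen after the values were seen and are given without a test. Among the 946 ratios that the 44 genes allow, 42 did not overlap, or 4.44%. The share over pairs of all genes was not computed, and the ratios share genes and libraries. Sdhb entered 18 of these and Cox6a2 16, in each case with the lower value in K15-SKO muscle. Without these genes 8 of 861 ratios remained. Both genes were singled out by their low values in the same libraries, so these counts add no separate evidence about them.

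The 5 isoform ratios, by contrast, were tested by exact permutation, two-sided, with 0.0286 as the smallest p that the design allows. Cox6a2 over Cox6a1 differed by -0.52 on the log2 scale (4.26 ± 0.39 in K15-SKO and 4.78 ± 0.28 in MyoCre muscle, exact p = 0.0571, adjusted over the 5 ratios 0.286). The K15-SKO libraries gave linear ratios of 24.0, 22.5, 13.04 and 20.002 and the MyoCre libraries 34.9, 24.2, 30.5 and 23.1. Only K15-SKO replicate 1 lay inside the MyoCre range. Cox7a1 over Cox7a2 differed by 0.20 (exact p = 0.429, adjusted 0.536) and Cox8b over Cox8a by 0.20 (exact p = 0.171, adjusted 0.429). The c-ring genes of the ATP synthase gave 0.05 for Atp5g1 over Atp5g3 (exact p = 0.286, adjusted 0.476) and 0.16 for Atp5g1 over Atp5g2 (exact p = 0.83, adjusted 0.83), the second resting on an Atp5g2 level below the minimum. All 5 overlapped, and none passed. After adjustment over the 5 ratios, a single ratio at the smallest p could not have passed. The adjusted values therefore cannot decide whether any single ratio differed.

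**Figure D4:**
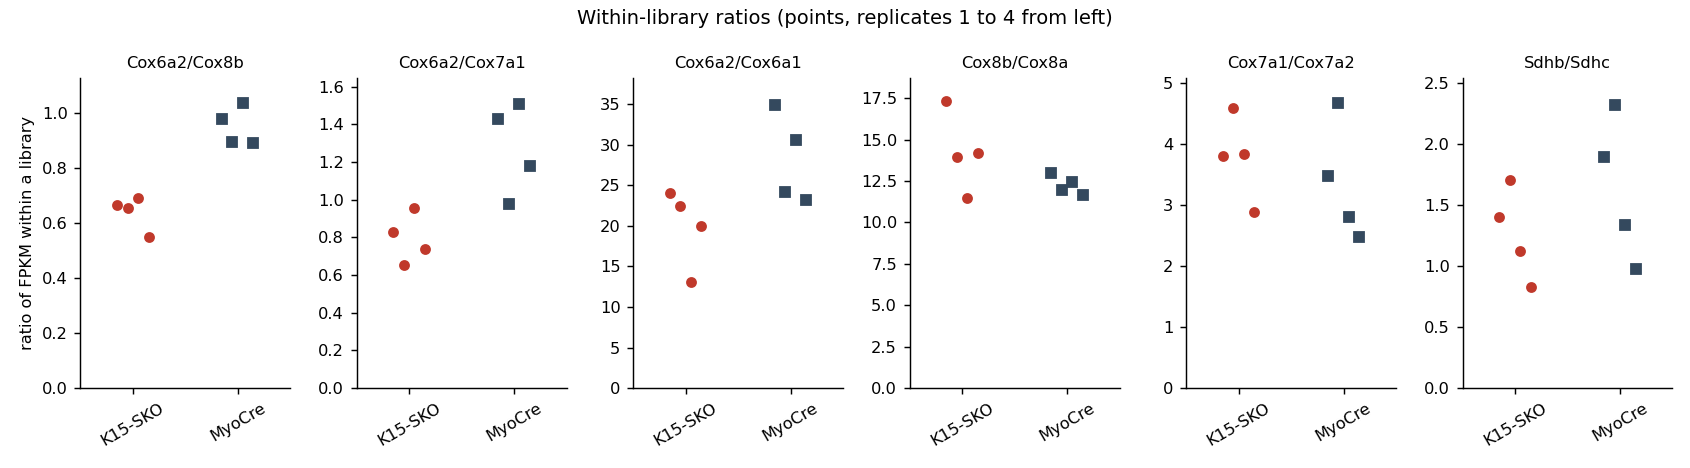
Ratio of FPKM within a library for 6 pairs (circles, K15-SKO replicates 1 to 4 from the left; squares, MyoCre replicates 1 to 4), on axes that start at 0. Cox6a2 over Cox8b stays below 0.7 in the K15-SKO libraries and above 0.89 in the MyoCre libraries, whereas Cox8b over Cox8a, Cox7a1 over Cox7a2 and Sdhb over Sdhc overlap.

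The remaining complex IV isoforms had small differences, none past the threshold. Cox6a1 had 49.4 ± 18.2 FPKM in K15-SKO and 50.7 ± 8.22 FPKM in MyoCre muscle, with K15-SKO replicate 3 highest at 75.6 FPKM. Cox7a2 had 313 ± 35.2 FPKM in K15-SKO and 344 ± 42.6 FPKM in MyoCre muscle, and Cox8a 103 ± 19.9 FPKM in K15-SKO and 121 ± 15.9 FPKM in MyoCre muscle (log2 fold change -0.24, SE 0.19). Cox6b1, which clasps the dimer of the complex, had 763 ± 51.6 FPKM in K15-SKO and 755 ± 42.9 FPKM in MyoCre muscle. Cox7b, an X-linked subunit, had 473 ± 128 FPKM in K15-SKO and 533 ± 33.8 FPKM in MyoCre muscle. Its K15-SKO replicate 3 was at 285 FPKM and the other 3 at 519 to 566 FPKM. Without that library its log2 fold change was 0.010, against -0.22 with it. The subunits without a named isoform partner also overlapped between the genotypes. Cox6c, second to Cox8b in complex IV by mean over the 8 libraries, had 1255 ± 156 FPKM in K15-SKO and 1327 ± 109 FPKM in MyoCre muscle. Cox5a had 706 ± 75.5 FPKM in K15-SKO and 765 ± 68.9 FPKM in MyoCre muscle, and Cox5b 269 ± 27.02 FPKM in K15-SKO and 285 ± 42.7 FPKM in MyoCre muscle. Cox7a2l had 102 ± 24.8 FPKM in K15-SKO and 116 ± 7.60 FPKM in MyoCre muscle, with the same K15-SKO library lowest.

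Cox4i1 and Cox4i2 are the isoforms of subunit 4, an early and regulatory part of the complex. For Cox4i1 the K15-SKO libraries gave 1018, 1128, 987 and 783 FPKM, and all 4 MyoCre libraries list it at 0. In GENCODE M21 (GRCm38) the gene occupies bases 120668222 to 120674207 of chromosome 8, plus strand, inside Gm20388, an annotated locus that spans 119910841 to 124345722. Its neighbour Emc8, which shares 14.7% of the Cox4i1 windows, had 4.26 to 8.26 FPKM in K15-SKO libraries and is likewise at 0 throughout MyoCre muscle. Gm20388 itself is also at 0 in every MyoCre library, and had 0 to 0.979 FPKM in K15-SKO libraries. Cox4i1 is the widespread isoform of a subunit that every respiring cell needs, so the 0 need not mean absence of the mRNA, and no fold is given. Cox4i2, the isoform known from lung, had 2.66 ± 1.503 FPKM in K15-SKO and 2.13 ± 0.56 FPKM in MyoCre muscle, with K15-SKO libraries from 0.878 to 4.33 FPKM that enclose the MyoCre range.

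The ATP synthase genes spanned the narrowest range of the complexes. The 14 genes had log2 fold changes from -0.18 to 0.02, and 13 were negative. Atp5e, the epsilon subunit, had 723 ± 173 FPKM in K15-SKO and 807 ± 120.1 FPKM in MyoCre muscle (log2 fold change -0.18, SE 0.21). Atp5f1, subunit b of the stalk, had 324 ± 64.0 FPKM in K15-SKO and 356 ± 18.7 FPKM in MyoCre muscle (-0.16, SE 0.19). These had the smallest unadjusted p of the complex, and a limma adjusted p of 0.963 each. In F1, the part of the complex that holds the beta subunit, the alpha subunit Atp5a1 had 1215 ± 119 FPKM in K15-SKO and 1317 ± 155 FPKM in MyoCre muscle. The gamma subunit Atp5c1 had 668 ± 135 FPKM in K15-SKO and 734 ± 84.5 FPKM in MyoCre muscle, and the delta subunit Atp5d 303 ± 52.0 FPKM in K15-SKO and 302 ± 69.4 FPKM in MyoCre muscle. In the stalk and membrane part, Atp5h (subunit d) had 230.2 ± 58.0 FPKM in K15-SKO and 233 ± 44.3 FPKM in MyoCre muscle, and Atp5j (coupling factor 6) 318 ± 58.9 FPKM in K15-SKO and 340.1 ± 56.9 FPKM in MyoCre muscle. Atp5j2 (subunit f) had 422 ± 78.4 FPKM in K15-SKO and 440.2 ± 94.9 FPKM in MyoCre muscle, and Atp5k (subunit e) 1045 ± 189 FPKM in K15-SKO and 1118 ± 125 FPKM in MyoCre muscle. None of these differed past the threshold. The c-ring gene Atp5g3 had 848 ± 66.4 FPKM in K15-SKO and 892 ± 85.1 FPKM in MyoCre muscle, and Atp5g1 had 390.0 ± 25.9 FPKM in K15-SKO and 399 ± 52.3 FPKM in MyoCre muscle. Both kept a nearly fixed proportion, with Atp5g1 over Atp5g3 between 0.446 and 0.474 in K15-SKO and between 0.420 and 0.469 in MyoCre libraries.

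None of the genes that code for no subunit passed the threshold. The pseudogene Uqcrh-ps1 had 32.1 ± 12.99 FPKM in K15-SKO and 41.4 ± 10.1 FPKM in MyoCre muscle, with the third smallest unadjusted p of the 44 (log2 fold change -0.41, SE 0.26, limma adjusted p 0.963). The ratio of Uqcrh to Uqcrh-ps1 overlapped, at 13.7 to 21.3 in K15-SKO and 11.5 to 17.6 in MyoCre libraries. Atp5k-ps2 had 59.3 ± 24.4 FPKM in K15-SKO and 51.9 ± 14.97 FPKM in MyoCre muscle. Atp5sl had 19.9 ± 2.85 FPKM in K15-SKO and 23.7 ± 3.01 FPKM in MyoCre muscle (-0.25, SE 0.18), and Atp5s ran from 2.99 to 10.2 FPKM in K15-SKO and from 5.65 to 9.43 FPKM in MyoCre libraries (-0.11, SE 0.30).

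The genes varied between libraries of 1 genotype. The coefficient of variation had a median of 18.3% in K15-SKO and 13.8% in MyoCre muscle. It ran from 6.64% for Atp5g1 to 56.4% for Cox4i2 in K15-SKO muscle, and from 5.25% for Atp5f1 to 28.9% for Atp5k-ps2 in MyoCre muscle. In several libraries the deviations moved with base composition, whose part in the results was not tested beyond the correction given here. The deviation of a library from a gene's mean had a Spearman rho with transcript GC content of 0.54 over the 44 genes in K15-SKO replicate 3, -0.61 in K15-SKO replicate 4, 0.55 in MyoCre replicate 2 and -0.59 in MyoCre replicate 4. Over 12338 genes the same libraries gave 0.63, -0.58, 0.41 and -0.63, in the same order. The genes share the libraries, so these are descriptions. After a correction for GC content, which was added after the data were seen, 0 of the 44 genes passed and 22 had a negative sign. The correction also removes differences in level between libraries, as a scaling does. The count of signs therefore cannot show the part of base composition alone.

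**Figure D5:**
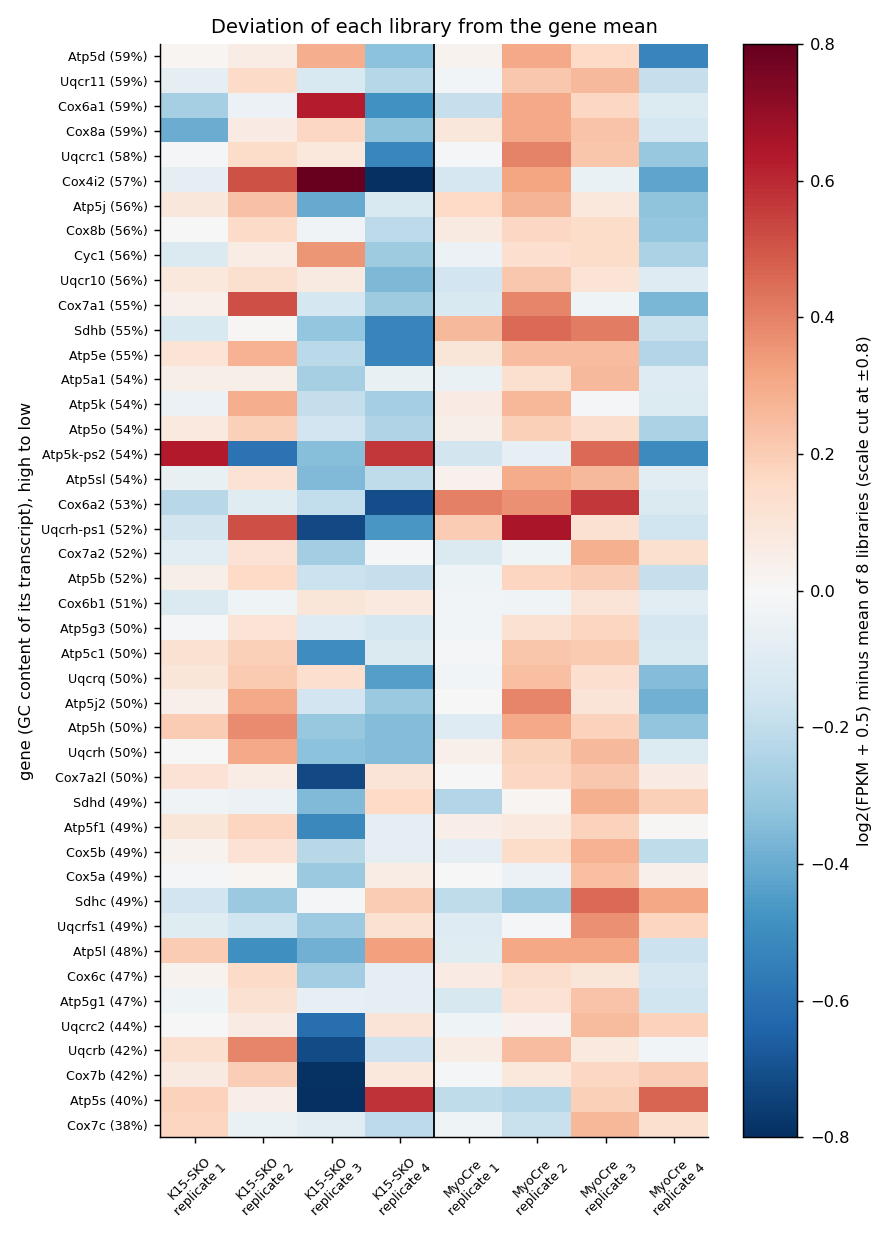
Deviation of log2(FPKM + 0.5) in each library (columns, 4 K15-SKO then 4 MyoCre) from the mean of the 8 libraries, for the 44 genes ordered by transcript GC content from high at the top; colours run from -0.8 to 0.8. K15-SKO replicate 3 is low for the AT-rich genes at the bottom, replicate 4 of both genotypes is low for the GC-rich genes at the top, and Cox6a2 and Sdhb are low across the K15-SKO columns or near 0.

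Genes of the same machinery that the names leave out gave similar values. Of 14 such subunits and partners, 7 were in the table and 6 were tested, with 0 past the threshold. Their median log2 fold change was -0.17, or -0.05 relative to all genes. Sdha, the flavoprotein partner of Sdhb, had 267 ± 34.6 FPKM in K15-SKO and 298 ± 33.2 FPKM in MyoCre muscle (-0.16, SE 0.18). Usmg5, a small ATP synthase subunit, had the smallest p of the 6, with 51.1 ± 3.96 FPKM in K15-SKO and 60.7 ± 11.5 FPKM in MyoCre muscle (-0.23, SE 0.18, limma adjusted p 0.963). The next was 2010107E04Rik at -0.18 (SE 0.19). Of 40 assembly factors of these complexes, 37 were tested, and 0 passed. A negative sign was found for 34, or 91.9%, beside 77.5% of all genes tested. The median was -0.15, or -0.03 relative to all genes. Cox18, which helps insert subunit 2 of complex IV into the membrane, had the smallest p. It measured 7.70, 6.83, 7.63 and 5.45 FPKM in K15-SKO, against 4.44, 4.01, 4.95 and 5.29 FPKM in MyoCre libraries, so the genotypes did not overlap. The same held for 3.02% of all genes tested. For Cox18 limma gave a log2 fold change of 0.51 (SE 0.18, adjusted p 0.962). Lyrm7, a chaperone of the Rieske protein Uqcrfs1, had 2.85 ± 1.19 FPKM in K15-SKO and 4.52 ± 0.92 FPKM in MyoCre muscle (-0.64, SE 0.25, limma adjusted p 0.963).

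Markers of fibre types and other cells are given beside these results, and their part in them was not tested. Relative to all genes, the median log2 fold change was 0.00 for 10 slow fibre markers and 0.14 for 10 fast fibre markers. The fast myosin Myh4 had 285, 84.8, 11.02 and 133 FPKM in K15-SKO, against 12.2, 66.7, 3.48 and 22.5 FPKM in MyoCre libraries, which overlapped. Its log2 fold change of 2.23 (SE 1.28) was the highest of the fast fibre list, of which 4 of 10 had a negative sign. The other fast markers ran from -0.18 for Tnnt3 to 0.67 for Actn3. The median relative to all genes was 0.08 for brown fat, -0.29 for white fat, 0.31 for endothelial and -0.26 for fibroblast markers. It was 0.93 for red blood cell and -0.29 for macrophage markers, with 0 genes of any list past the threshold. The red blood cell value rested largely on K15-SKO replicate 3: the sums were 320, 577, 2034 and 335 FPKM in K15-SKO and 284 to 459 FPKM in MyoCre libraries, and without that library the median was 0.20. Single libraries also moved other lists, to 0.07 for endothelial markers without K15-SKO replicate 3, -0.04 for white fat without K15-SKO replicate 4 and -0.06 for macrophage markers without K15-SKO replicate 1. Across all libraries left out in turn, the fibroblast median ran from -0.49 to -0.11, the brown fat median from -0.03 to 0.23, the slow fibre median from -0.22 to 0.14 and the fast fibre median from 0.02 to 0.42. White fat markers, 6 of 7 tested, summed to 254 to 498 FPKM in K15-SKO and 260 to 346 FPKM in MyoCre libraries. The brown fat list shares Cox8b and Cox7a1 with the subunits, and its defining gene Ucp1 was at 0 in all K15-SKO libraries and at most 0.0621 FPKM in MyoCre libraries. The endothelial cadherin Cdh5 had 29.1 to 31.8 FPKM in K15-SKO and 18.3 to 27.1 FPKM in MyoCre libraries, without overlap (log2 fold change 0.43, SE 0.18, limma adjusted p 0.963). Of all genes tested, 3.02% had no overlap. Cdh5 was the highest of its list, and the other endothelial markers ran from -0.10 for Tek to 0.31 for Tie1. Endothelial markers summed to 157 to 225 FPKM in K15-SKO and 135 to 182 FPKM in MyoCre libraries, fibroblast markers to 404 to 711 FPKM in K15-SKO and 548 to 945 FPKM in MyoCre libraries, and macrophage markers to 19.5 to 47.9 FPKM in K15-SKO and 40.4 to 46.2 FPKM in MyoCre libraries. All of these sums overlapped.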

How the data were processed

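RNA was measured in 8 soleus samples, 4 K15-SKO and 4 MyoCre. The authors deposited 1 table of 24033 genes, whose values are taken here to be FPKM. The unit is inferred: the values are not whole numbers and have no common total, and STAR, Cufflinks, Cuffdiff and mm10 stand in the submitters' processing notes without versions. No source used here gives the annotation release, strand setting, filters or scaling, so reads of overlapping or antisense genes may be mixed. The columns were matched to samples through the labels, with 0 further value columns.

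The genes and lists were chosen with earlier results of these data known. Genes averaging 1 FPKM or more were tested on log2(FPKM + 0.5), which understates changes of low genes, with limma 3.58.1 in R 4.3.3, with trend and robust estimation. Of 12535 such genes, 159 at 0 in all libraries of a genotype were left out, leaving 12376. Tests were two-sided, with Benjamini-Hochberg adjustment over all genes and a threshold of 0.05. The script was tested on simulated data. Depth was estimated from the lowest values of single-transcript genes over 1000 bases, so 1 FPKM over 1 kilobase stood for 7.86 to 22.2 fragments. IDs were matched to GENCODE M21 transcripts without their version for 23896 of 24033 genes, and shared sequence was counted in windows of 50 bases.

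Named genes were Klf15, genes at 0 in a genotype, members of the isoform families, and per complex the most abundant gene and the 2 with the smallest p. In the lists of outside subunits and of assembly factors it was again the 2 with the smallest p, and the marker lists are given by medians and sums. Cyc1, Sdhc, Sdha, Cox7c, Atp5l, Atp5o, Ucp1, Myh4, Cdh5 and members named outside this rule were chosen after their values were seen. Alternatives were other pseudocounts, filters and scalings, non-robust estimation, genes at 0 kept, a replicate block, each library left out and, added after seeing the data, centring on the members' median, a GC correction with and without the block, and marker list medians with each library left out.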

Additional observations from a re-analysis of the deposited data

Results flagged for a closer look

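Among 101 sets of 4 values (each gene or isoform ratio in 1 genotype), 3 held a library far from the other 3, where chance at 1 in 20 would give 5.05. In K15-SKO muscle, Cox7b was 285 FPKM in replicate 3 and 519 to 566 FPKM in the others. Cox7a2l was 64.6 FPKM in the same library and 111 to 116 FPKM in the others. Uqcr10 was 506 FPKM in K15-SKO replicate 4 and 681 to 709 FPKM in the others.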

How the results depend on the processing

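The reported count of genes past the threshold was 12, in the lower direction. It came to 0 with no filter on the mean (890 at an unadjusted limma p under 0.05), 3 with median-of-ratios scaling, 1 with upper-quartile scaling, 0 with quantile normalization (444 unadjusted), 3 without robust estimation, 69 with genes at 0 kept, 0 centred on the members' median (424 unadjusted) and 20 with the GC correction. With 1 library left out it ran from 0 to 15, the lowest being 0 without K15-SKO replicate 3 (525 unadjusted) and 0 without MyoCre replicate 3 (334 unadjusted). Leaving out MyoCre replicate 1 gave 2, and leaving out K15-SKO replicate 1 gave 5. Members past the threshold stayed at 0 in 20 of 21 alternatives and came to 1, Cox4i1, with genes at 0 kept. The members' median log2 fold change ran from -0.16 to 0.03, and from -0.04 to 0.05 relative to all genes.

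A replicate block gave 24 genes past the threshold, and 3 together with the GC correction. The limma adjusted p of Klf15 was 0.0291 with the block and 0.0513 with both. Libraries with the same number correlated at 0.15, 0.34, 0.01 and 0.34, and 6 of 8 libraries correlated best with their own number. The labels do not say what a number marks, and 1 of the 4 correlations was near 0, so the fit without the block was kept. Whether the numbers mark a shared origin is undecided.

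Negative signs among the 44 genes numbered 16 with median-of-ratios and with upper-quartile scaling, and 19 with quantile normalization. Of all genes, 49.8, 49.0 and 49.6% were negative in these settings, in the same order. With 1 library left out, the members' count ran from 32 to 42. The members' count was 20 when centred on the members' median, which roughly balances their signs by construction. It was 22 with the GC correction, with or without the block, a correction that also removes differences in level between libraries. Of 440 alternative fits of named genes, 379 kept sign and side, 57 turned the sign, over 12 genes, and 4 crossed the threshold, all for Klf15. No turned value was past the threshold, and the cause was not tested. In the order median-of-ratios, upper-quartile, quantile and members' median, the log2 fold changes were 0.050, 0.054, 0.041 and 0.038 for Cox6a1, 0.10, 0.10, 0.034 and 0.088 for Cox8b, 0.11, 0.12, 0.098 and 0.10 for Atp5g1, 0.068, 0.071, 0.090 and 0.055 for Atp5g3, 0.10, 0.11, 0.084 and 0.090 for Uqcr10 and 0.063, 0.067, 0.055 and 0.050 for Atp5b. In the first 3 of these, Sdhd had 0.0073, 0.011 and 0.012, and in the first 2, Cox7a2 had 0.0069 and 0.011. With the GC correction, with or without the block, they were 0.036 for Cox8b, 0.13 for Atp5g1, 0.054 for Atp5g3, 0.0063 for Sdhd, 0.041 for Uqcr10 and 0.036 for Atp5b. With 1 library left out, log2 fold changes ran from -0.11 to 0.49 for Cox4i2, -0.096 to 0.21 for Cox7a1, -0.015 to 0.055 for Cox6b1, -0.32 to 0.010 for Cox7b, -0.31 to 0.060 for Cox6a1, -0.15 to 0.025 for Cox8b, -0.093 to 0.077 for Uqcr10 and -0.082 to 0.047 for Atp5g1. The Atp5g1 over Atp5g2 ratio ran from -0.14 to 0.41.

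Sdhb kept its negative sign in 21 of 21 alternatives and had an unadjusted p under 0.05 in 14. Depth limits the low genes most: 1 FPKM over 1 kilobase stood for 7.86 to 22.2 fragments, and Cox4i2, Atp5l and Atp5g2 lay near or below that level.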
